A study of Mus musculus with 8 samples.

Results

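Toll-like receptor genes and Hmgb1 were followed in microglia of an Alzheimer's disease mouse model after repeated ethanol exposure. The set holds 10 of the 56832 rows of the deposited table. It was chosen by name and consists of Tlr1, Tlr2, Tlr4 and Tlr6, whose proteins sit mainly at the cell surface, Tlr3, Tlr7, Tlr8, Tlr9 and Tlr13, whose proteins sense nucleic acids inside endosomes, and the ligand gene Hmgb1. The mice were young adult males of the 5xFAD line, which carries transgenes for mutant human amyloid precursor protein and presenilin under a neuronal promoter, and both groups carried them. Injections went into the peritoneal cavity on 5 days a week for 4 weeks and were followed by 2 weeks of withdrawal. The 4 ethanol libraries came from mice given 3 g/kg as a 20% solution, and the 4 saline libraries from mice given saline. Microglia, which are tissue macrophages of the brain, were taken by fluorescence-activated sorting, and the RNA was measured once at the end of withdrawal.

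Toll-like receptors are membrane proteins with a leucine-rich repeat domain that binds microbial or damage-derived molecules and a cytoplasmic TIR domain that recruits adaptors. Most of them signal through MyD88 to NF-kB, and TLR3 signals through TRIF, the product of Ticam1. HMGB1 is a chromatin protein of the nucleus that acts as a danger signal once it is released from stressed or dying cells, and TLR4 is among its receptors. In the brain these receptors are made chiefly by microglia, and both TLR4 and HMGB1 have been studied as mediators of ethanol effects on glia.

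All libraries had the profile of microglia. Summed transcripts of 10 microglial markers made up 4.77 to 5.05% of the normalized counts in saline and 5.02 to 5.23% in ethanol libraries, and all 10 were detected. Neutrophil markers made up 0.0161 to 0.0837% and 0.0142 to 0.0615%, border macrophage markers 0.00331 to 0.0161% and 0.00529 to 0.00809%, and monocyte markers 0.00225 to 0.00727% and 0.00231 to 0.00479%. Over all 8 libraries, astrocyte markers made up 0.0406 to 0.0586%, oligodendrocyte markers 0.0185 to 0.0211%, lymphocyte markers 0.00376 to 0.00662%, endothelial and mural markers 0.00370 to 0.00455%, and neuron markers 0.00067 to 0.00164%. Dendritic cell markers summed to 0.132 to 0.151%, of which Siglech and Bst2, which microglia also make, held 0.131 to 0.151% and the other 5 genes 0.00015 to 0.00092%. Among these lists, Cd3e, Cd3d and Ms4a1 of lymphocytes, Ccr7 of dendritic cells and Rgs5 of mural cells had 0 reads in every library, while other genes of each list had reads. In such sorted bulk RNA, fewer cells of a type and less RNA per cell cannot be told apart. Libraries held 14271351 to 17231301 reads assigned to genes. The titles call them separate samples without naming the animals, so a p-value here measures library-to-library spread only, which may be technical in part.

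The reading of 3 members is bounded by sequence that they share with other genes. In the GENCODE M21 reference transcripts, the neighbouring genes Tlr1 and Tlr6, which encode the alternative partners of TLR2, share 3 identical runs of at least 100 coding bases, which are 119, 229 and 208 bases long. Of the 100-base windows along the coding sequence, 11.3% for Tlr1 and 11.2% for Tlr6 recur in the other gene. These windows are shorter than the paired reads of 150 nt, and no full read fits inside the run of 119 bases. The percentages are therefore not shares of reads that fit both genes. The longest run holds 130 of the 259 shared windows, and the others hold 20 and 109. It is printed with 30 bases on either side as an example of where reads lying wholly inside a run fit both genes, and capitals mark the 2 positions that differ over these 289 bases. The printed stretch covers coding bases 1438 to 1726 of Tlr1 and 1477 to 1765 of Tlr6.
Tlr1: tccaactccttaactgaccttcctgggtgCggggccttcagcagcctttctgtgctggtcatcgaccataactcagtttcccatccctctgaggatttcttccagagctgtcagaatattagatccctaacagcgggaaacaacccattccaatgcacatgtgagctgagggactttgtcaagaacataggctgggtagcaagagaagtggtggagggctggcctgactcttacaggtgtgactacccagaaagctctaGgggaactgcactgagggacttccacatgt
Tlr6: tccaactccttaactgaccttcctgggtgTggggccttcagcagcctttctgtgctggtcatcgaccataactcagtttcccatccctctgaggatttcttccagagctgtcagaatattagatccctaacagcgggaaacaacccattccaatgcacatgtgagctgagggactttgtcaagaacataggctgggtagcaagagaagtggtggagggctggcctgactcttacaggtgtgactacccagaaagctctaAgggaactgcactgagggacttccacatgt

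No other pair among the 36 pairs of these receptor genes shares a coding run of more than 16 bases. No 100-base coding window of Tlr2, Tlr3, Tlr4, Tlr7, Tlr8, Tlr9 or Tlr13 occurs in a transcript of another gene. Hmgb1 is the opposite case. Of its 549 coding windows, 98.4% recur in at least 1 of 51 other annotated genes. Only the 9 windows at the start of the coding sequence, within bases 1 to 108, were found in no other gene, and capitals mark the 92 bases common to all 9.
Hmgb1: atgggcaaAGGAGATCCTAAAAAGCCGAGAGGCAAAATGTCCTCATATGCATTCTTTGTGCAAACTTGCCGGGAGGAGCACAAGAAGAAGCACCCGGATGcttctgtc
How the authors' counting treated reads that fit several places is not given in the sources used here, so the values of Tlr1, Tlr6 and Hmgb1 are uncertain to that extent. The table has 14 rows named as copies of Hmgb1, and their sum was 2.75 to 6.21% of the Hmgb1 value by library. That sum leaves out sharing genes with other names, such as Gm21596, which holds 528 of the Hmgb1 windows. Sharing was checked for the 648 coding bases of Hmgb1 and not for the rest of its exons.

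Compared per length of exon (the union of a gene's exons in GENCODE M21), the RNA sensors Tlr7 and Tlr13 were the most abundant members and Tlr8 the least. Tlr7, the receptor for single-stranded RNA, stood at 1361 ± 130 normalized counts per kb in saline and 1291 ± 58.9 under ethanol (SD, n = 4 per group). Tlr13, a mouse receptor for bacterial ribosomal RNA, stood at 1154 ± 125 and 1319 ± 118. Tlr7 had the higher mean in saline and Tlr13 the higher mean in ethanol, and their ranges over the 8 libraries overlap. Hmgb1 came next at 697 ± 22.8 and 668 ± 36.5 normalized counts per kb. With the union of exons as its length, it was below Tlr13 in each library.

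Among the surface receptors, Tlr2, the receptor for bacterial lipoproteins, stood at 603 ± 34.6 normalized counts per kb in the saline group and 609 ± 66.5 in the ethanol group (SD, n = 4 per group). Tlr4, the endotoxin receptor, followed at 521 ± 64.4 and 516 ± 51.4. Tlr2 was above Tlr4 in 8 of 8 libraries, although the ranges overlap. Both TLR2 partners lay lower, with Tlr6 at 356 ± 25.6 and 385 ± 42.4 normalized counts per kb and Tlr1 at 359 ± 24.4 and 343 ± 45.4. Tlr3, the sensor of double-stranded RNA, was at 329 ± 40.5 in both groups, so Tlr6, Tlr1 and Tlr3 could not be ordered by their spread. A clear step separated them from Tlr9, the sensor of unmethylated CpG DNA, at 60.9 ± 9.43 and 59.7 ± 10.7 normalized counts per kb. Tlr8 was last at 3.29 ± 3.82 and 2.81 ± 4.23.

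**Figure D1:**
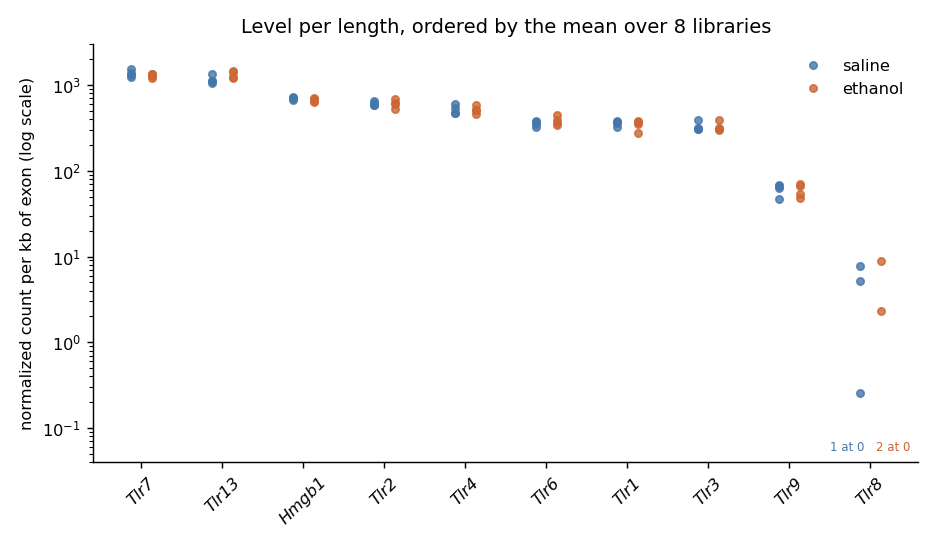
Normalized count per kb of exon on a log scale for each member, ordered by the mean over 8 libraries, with 1 point per library (saline blue, ethanol orange) and libraries at 0 written as a count. Tlr7 and Tlr13 share the top, Tlr9 lies well below the other detected receptors, and Tlr8 has 3 libraries at 0.

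This order depends in part on the length used. With the longest transcript in place of the union of exons, the mean of Hmgb1 over the 8 libraries was 1208 normalized counts per kb in place of 683, since its exon union of 5023 bases is longer than its longest transcript of 2838. Tlr4 then had 707, above the 606 of Tlr2, and Tlr3 moved up from rank 8 to rank 6. With either length, the means over all 8 libraries put Tlr7, Tlr13 and Hmgb1 first in this order and Tlr9 and Tlr8 last. With the longest transcript, Tlr7 and Tlr13 had 1389 and 1311, so Hmgb1 lay closer to them. At that length Hmgb1 was above Tlr13 in some saline libraries, so the order of these genes is not fixed. Of the summed level per kb of the 9 receptors, the endosomal sensors held 61.2 ± 2.71% in the saline group and 61.8 ± 1.77% in the ethanol group (SD, n = 4 per group), with 58.4 to 64.9% in single libraries. Tlr7 and Tlr8 are neighbours on chromosome X, and the abundant one and the nearly silent one thus lie side by side. Tlr1 and Tlr6 are neighbours on chromosome 5 and were of like level.

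None of the 10 members passed the test for a difference between ethanol and saline. All 10 were tested, since each passed the filter of 10 on its mean normalized count, Tlr8 by a narrow margin at 10.9. In limma on log2 of the normalized count plus 1, 0 of 10 had a Benjamini-Hochberg adjusted p under 0.05, where the background was 0 of 14428 genes tested, or 0%. Members had 3 positive and 7 negative fold changes and a median of -0.02 on the log2 scale. Over all genes tested, 7046 were positive and 7382 negative, with a median of -0.0054. The members' median was 0.04 without ethanol 3, -0.04 without saline 1 and -0.06 with the library-name number as a factor, so its sign is not stable. The groups overlapped for each of the 10 members, where 2.32% of all genes had groups that did not overlap. At an unadjusted p under 0.05 there was 1 member, Tlr13, against a background of 3.63% of genes. It was higher in ethanol, as were 1.70% of genes at that p, and 0 members were lower, where 1.93% of genes were. The edgeR quasi-likelihood test, voom and DESeq2 on recovered reads also called 0 members and 0 genes, and each had Tlr13 as the single member under an unadjusted 0.05, beside backgrounds of 3.43%, 3.78% and 2.90%.

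**Figure D2:**
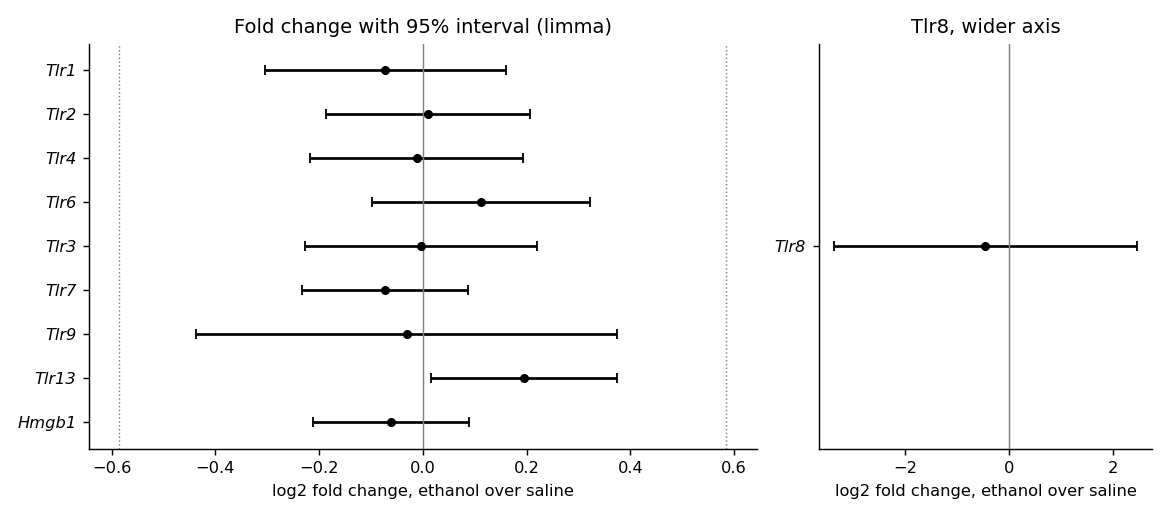
Log2 fold change of ethanol over saline with its 95% interval from limma for each member, Tlr8 on a wider axis, and dotted lines at a 1.5-fold change. Each of the 9 intervals on the left lies within the dotted lines, and only that of Tlr13 leaves out 0.

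Tlr4 had nearly the same mean in both groups. The 4 saline libraries read 2638, 3021, 3347 and 2583 normalized counts and the 4 ethanol libraries 3232, 2859, 2534 and 2844, in the order of their sample numbers. The highest value was in saline 3 and the lowest in ethanol 3, and the groups overlapped along nearly their whole range. The fold was 0.992 with a 95% interval of 0.861 to 1.14 (limma adjusted p = 0.997).

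Tlr2 read 1958, 1735, 1834 and 1741 normalized counts in saline and 1807, 1859, 1594 and 2083 in ethanol. Ethanol 3 was the lowest and ethanol 4 the highest library, so the saline values lay inside the ethanol range. Its fold was 1.01 (95% interval 0.878 to 1.15). Of the TLR2 partner genes, Tlr1 read 1093, 1194, 1287 and 1233 in saline and 1238, 1254, 927 and 1176 in ethanol, a fold of 0.951 (0.810 to 1.12). Ethanol 3 stood below every other library for Tlr1, as it did for Tlr2 and Tlr4. Without it the log2 fold change of Tlr1 was 0.03 in place of -0.07. Tlr6 read 1383, 1421, 1208 and 1291 in saline and 1284, 1460, 1355 and 1647 in ethanol, a fold of 1.08 (0.934 to 1.25). The ratio of Tlr6 to Tlr1 per kb was 0.997 ± 0.131 in the saline group and 1.14 ± 0.179 in the ethanol group (SD, n = 4 per group), and it ranged from 0.843 in saline 3 to 1.31 in ethanol 3, so it overlapped between groups.

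Of the endosomal sensors, Tlr3 was high in sample 2 of both groups. Saline libraries read 1633, 2030, 1598 and 1598 normalized counts and ethanol libraries 1571, 2025, 1611 and 1638. Saline 2 and ethanol 2 stood apart and the other 6 lay between 1571 and 1638. The fold was 0.998 (95% interval 0.855 to 1.17), and its sign turned under quantile normalization, array weights, edgeR and voom. Saline 2, ethanol 2 and ethanol 1 carry the number 165 in their library names, and ethanol 1 had the lowest value. The part of that number in the Tlr3 values was not tested. The antisense gene Gm45542, which overlaps 381 of the 5207 exon bases of Tlr3, had at most 1.00 normalized count in any library.

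Tlr9 read 234, 164, 217 and 233 normalized counts in saline and 231, 188, 246 and 166 in ethanol, a fold of 0.978 (95% interval 0.738 to 1.30). The lowest library was saline 2 and the highest ethanol 3. This interval is wider than those of the more abundant receptors, and Tlr9 rested on 161 to 256 reads per library.

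Tlr8 was sparse and uneven within both groups. It had 1, 29, 18 and 0 reads in saline and 0, 32, 0 and 8 reads in ethanol libraries. Libraries of both groups were either at 0 or 1 read or had 8 to 32, and an exact 95% Poisson interval, which covers counting error only, was 19.4 to 41.6 reads for the 29 of saline 2 and at most 3.69 reads for a library at 0. The intervals of saline 2 and of saline 4, which had 0 reads, do not meet. These intervals take each read as an independent molecule, which reads from so little amplified RNA are not. The limma fold of 0.729 had a 95% interval of 0.0959 to 5.55, and its log2 value of -0.46 became -0.21 in edgeR. Among the 500 genes closest in mean, 99.6% varied less between libraries of a group than Tlr8. The neutrophil marker share was highest in saline 1, at 0.0837%, where Tlr8 had 1 read, and the border macrophage share was highest in saline 2, at 0.0161%, where it had 29, and their part in the Tlr8 values was not tested.

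Tlr7 had a lower mean and Tlr13 a higher mean in ethanol than in saline, and neither difference passed the test. Tlr7 read 5389, 5607, 4982 and 6248 normalized counts in saline and 4976, 5487, 5167 and 5443 in ethanol. Saline 4 was the highest library and the rest overlapped, with a fold of 0.951 (95% interval 0.851 to 1.06). Tlr13 read 4593, 4783, 4724 and 5760 in saline and 5350, 6183, 5146 and 6030 in ethanol. Each ethanol library was above 3 of the 4 saline libraries, and saline 4 lay among the ethanol values. Its fold was 1.14 (1.01 to 1.30), with an unadjusted limma p of 0.0349 and an adjusted p of 0.997. Leaving out 1 library, the unadjusted p ranged from 0.00508 without saline 4 to 0.117 without ethanol 2. Samples 1 and 2 alone gave a log2 difference of 0.30, and samples 3 and 4 alone gave 0.09. The summed microglial markers overlapped between the groups, with ethanol libraries toward the higher end, and their part in the Tlr13 values was not tested.

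**Figure D3:**
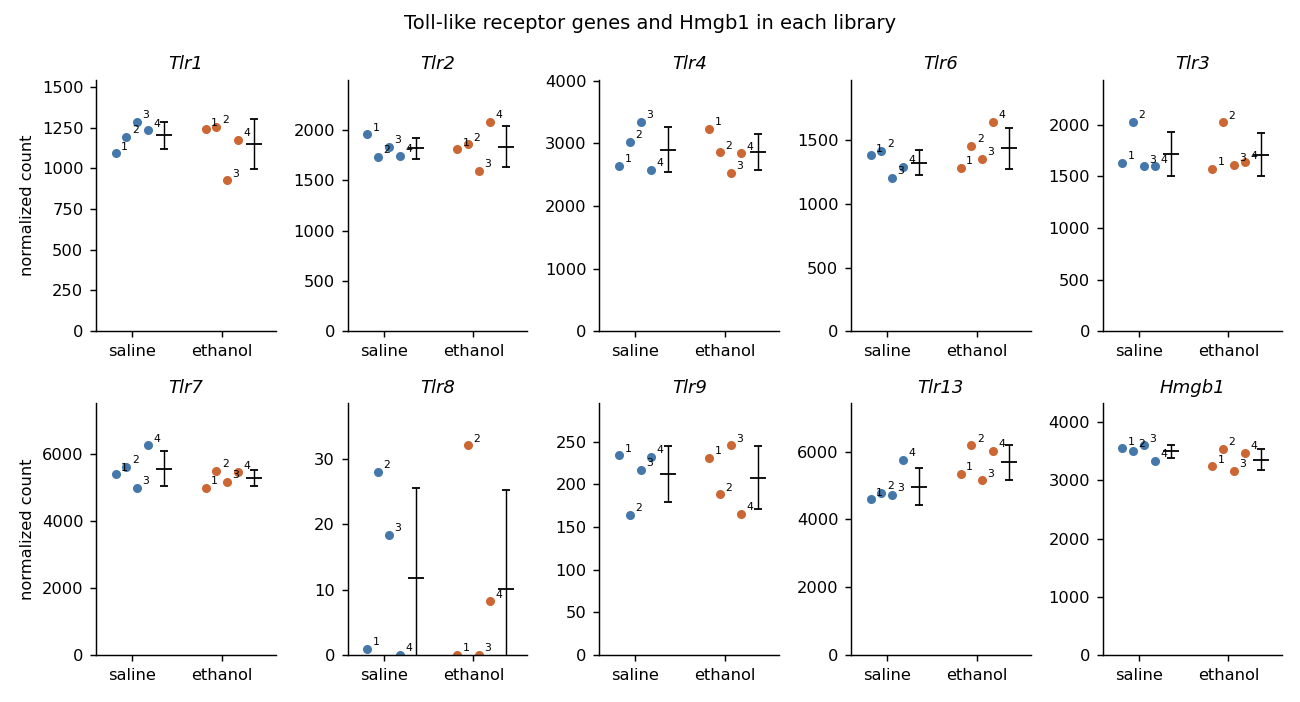
Normalized counts of each member by library (numbers are the sample numbers in the titles), with the mean and SD of each group of 4 beside the points and every axis starting at 0, where the lower SD bars of Tlr8 are cut off. The groups overlap in all 10 panels, sample 2 is high for Tlr3 in both groups, and Tlr8 has 1 read or none in 4 of 8 libraries.

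The ratio of Tlr13 to Tlr7 had values that did not overlap between the groups, a pair singled out after its values were seen and therefore given without a test. Per kb it was 0.808, 0.809, 0.899 and 0.874 in saline and 1.02, 1.07, 0.945 and 1.05 in ethanol. The means were 0.848 ± 0.0463 and 1.02 ± 0.0548 (SD, n = 4 per group). Saline 4, which was high for Tlr13, was high for Tlr7 as well, so its ratio stayed with the saline group. Over the 36 pairs that can be made from the 9 members with reads in each library, 2 ratios did not overlap, the other being Tlr6 to Tlr7, where ethanol was also the higher group. Among all pairs of the 3450 genes whose mean reached 1000 normalized counts, 2.31% did not overlap. Tlr9, with a mean of 210, is in the member pairs but under that cutoff, so the sets compared differ in level. Both of the member pairs that did not overlap contain Tlr7, so they are not independent of each other.

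**Figure D4:**
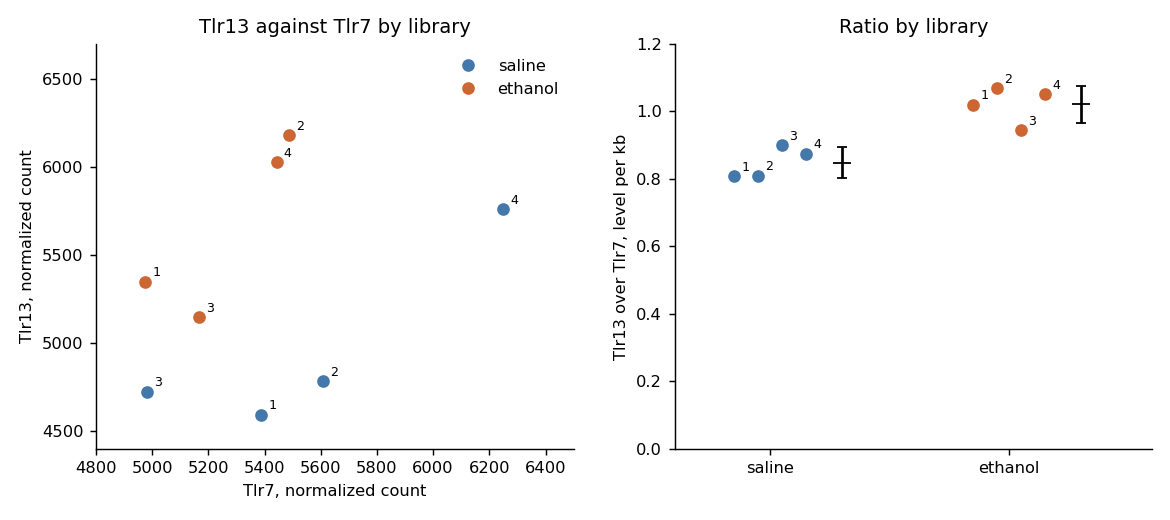
On the left, Tlr13 against Tlr7 normalized counts with 1 point per library (numbers are sample numbers, axes do not start at 0), and on the right the ratio of their levels per kb with mean and SD of each group. Ratios run from 0.808 to 0.899 in saline and from 0.945 to 1.07 in ethanol.

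Hmgb1 varied less between libraries than most genes of its level. Saline libraries read 3553, 3512, 3604 and 3340 normalized counts and ethanol libraries 3242, 3548, 3164 and 3474. Ethanol 1 and ethanol 3 lay below all saline libraries and the other 2 ethanol libraries lay within the saline range. The fold was 0.958 with a 95% interval of 0.863 to 1.06 (limma adjusted p = 0.997). The SD was 3.26% of the mean in saline and 5.46% in ethanol, and 10.6% of the 500 genes closest in mean varied less between libraries of a group. Transcript levels say nothing about where the protein was or how much was released.

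For 9 of the 10 members the 95% interval stayed inside 1.5-fold on both sides, Tlr8 being the exception. The widest of these was that of Tlr9 and the narrowest that of Hmgb1. These intervals rest on 4 libraries a group.

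Other Toll-like receptor genes were read for their levels. Tlr12, a receptor for profilin of parasites, averaged 1191 ± 119 normalized counts under saline and 1208 ± 137 under ethanol (SD, n = 4 per group). Tlr5, the flagellin receptor, read 352, 392, 391 and 431 in saline and 478, 486, 504 and 347 in ethanol. Of these, 3 ethanol libraries lay above all of saline and ethanol 4 below all of it, with a fold of 1.15 (95% interval 0.927 to 1.42). Tlr11 had 18, 15, 15 and 13 reads in saline and 0, 12, 5 and 1 reads in ethanol. On the normalized scale, which corrects for depth, only ethanol 2 reached the saline range, and the mean of Tlr11 was below the filter of 10. Kept in the fits without that filter, Tlr11 had a log2 fold change of -2.12 in limma (adjusted p = 0.917) and -1.68 in DESeq2 (adjusted p = 0.998). At such counts the limma value depends on the pseudocount, and other pseudocounts were not run for Tlr11.

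Members of the wider pathway did not pass either. For this list and those below, the background over all genes tested was 0% called and 3.63% at an unadjusted limma p under 0.05. Of the fold changes over all genes tested, 7046 were positive and 7382 negative. Genes of a list share the same libraries, so their signs are not independent. Of 27 co-receptor, adaptor and kinase genes 25 were tested and 0 were called (1 at an unadjusted p under 0.05), with 8 positive and 17 negative fold changes and a median of -0.06 on the log2 scale. Cd14, which hands endotoxin to TLR4, had a fold of 0.997 (95% interval 0.895 to 1.11), and Ly96, which encodes the MD-2 subunit that binds endotoxin, 0.851 (0.701 to 1.03). Ly96 read 897, 740, 1029 and 712 normalized counts in saline and 764, 612, 705 and 773 in ethanol, with 2 ethanol libraries below all of saline. The folds were 0.984 (0.847 to 1.14) for the adaptor gene Myd88 and 0.949 (0.762 to 1.18) for Ticam1. Tab3, a binding partner of the kinase TAK1, had the smallest unadjusted p of this list, at 265, 225, 210 and 175 normalized counts in saline and 331, 259, 243 and 411 in ethanol. Saline 1 overlapped the lower ethanol libraries, and the log2 fold change was 0.49 (limma adjusted p = 0.997).

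Genes that fold, move and process the endosomal receptors had 0 called of 14 tested, out of 15 listed. At an unadjusted limma p under 0.05 there were 2, beside 3.63% of all genes tested. The list had 7 positive and 7 negative fold changes and a median of -0.01. Unc93b1, the chaperone that carries these receptors to endosomes, was abundant and steady at 25750 ± 546 and 26276 ± 1371 normalized counts, a fold of 1.02 (95% interval 0.942 to 1.10). The folds were 1.05 (0.953 to 1.15) for the folding chaperone gene Hsp90b1, and 0.956 (0.867 to 1.05) for Ctss and 1.06 (0.980 to 1.15) for Lgmn, which encode proteases of endosomes and lysosomes. Rab7b, a small GTPase of late endosomes, had the smallest unadjusted p of this list and was sparse, with 55.3 ± 47.1 normalized counts under saline and 22.1 ± 26.0 under ethanol (limma adjusted p = 0.997). Its log2 fold change was -1.79 in limma and -1.30 in edgeR. Saline 2 held 125 of it, and no other library more than 59.2.

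Relatives and other receptors of HMGB1 had 0 called of 5 tested (0 at an unadjusted p under 0.05), out of 8 listed, with 4 positive and 1 negative fold changes and a median of 0.08. Hmgb2, a chromatin protein that dividing cells make at higher level, had a fold of 1.05 (95% interval 0.840 to 1.32). Havcr2, which encodes the checkpoint receptor TIM-3, had 0.949 (0.857 to 1.05, limma adjusted p = 0.997). For Havcr2, 3 ethanol libraries lay below all of saline, and ethanol 4 lay inside the saline range. Ager, the gene of the receptor RAGE, was low, with 11 to 41 reads in saline and 12 to 41 in ethanol libraries. Hmgb3, a further chromatin protein gene, had 6.14 ± 3.32 normalized counts under saline and 15.2 ± 11.9 under ethanol. Ethanol 2 and ethanol 3 lay above the rest. Its saline mean was under the filter, and its mean over all libraries, 10.6, passed through the ethanol values. Hmgb3 is among the 4 positive fold changes of this list and enters its median, so both depend in part on that filter.

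Inhibitors of the pathway had 0 called of 18 tested (0 at an unadjusted p under 0.05), with 11 positive and 7 negative fold changes and a median of 0.02. Irak3, which encodes an inhibitory kinase-like protein, had a fold of 1.02 (95% interval 0.738 to 1.41). Rnf216, which encodes a ubiquitin ligase of Toll-like receptors, read 1741, 1859, 1765 and 1839 normalized counts in saline and 1999, 1921, 2086 and 1959 in ethanol. Its groups did not overlap, as was so for 2.32% of all genes tested. Its fold was only 1.11 (0.986 to 1.24, limma adjusted p = 0.997). Of 28 genes that receptor signalling induces or that relay it in the nucleus, 22 were tested and 0 called. At an unadjusted limma p under 0.05 there was 1, beside 3.63% of all genes tested. This list had 8 positive and 14 negative fold changes and a median of -0.03. Tnf, the cytokine gene, read 19.4, 3.86, 9.17 and 11.8 normalized counts in saline and 18.5, 14.0, 49.1 and 39.1 in ethanol, where ethanol 3 and ethanol 4 were above every other library, and its unadjusted limma p of 0.0380 became 0.997 after adjustment. Nfkbia, the NF-kB inhibitor gene that NF-kB itself induces, had a fold of 0.962 (0.805 to 1.15). Ifnb1, the interferon beta gene, had 5 reads in all 8 libraries together.

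Genes whose values ran most like those of a member were sought among genes averaging 1000 normalized counts or more, and the 3 of highest Pearson r over the 8 libraries, which share the normalization, were kept for each. These 30 values of r ran from 0.879 to 0.990, each being among the largest of about 3450, and they describe these libraries only. With the 2 libraries farthest from the median of the member left out they ran from -0.349 to 0.974, and 12 of 30 were then under 0.8.

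For Tlr4 the most like genes were Cct5, a subunit gene of a cytosolic chaperonin, with r of 0.975, and the chaperone genes Dnajb9 at 0.968 and Dnajb1 at 0.944. Without the 2 libraries they had 0.925, 0.937 and 0.906. For Tlr13 they were Msn, which encodes the membrane linker moesin, at 0.975, M6pr at 0.928 and Cpeb2 at 0.919, which had 0.974, 0.812 and 0.813 without them. For Hmgb1 they were Naa40, which encodes an acetyltransferase of histones, at 0.990, Klhl9 at 0.920 and Rmnd5a at 0.919, where Rmnd5a had 0.581 without the 2 libraries. The genes most like Tlr1 held up less, with Erp44 at 0.933 and 0.585, Psmd12 at 0.927 and 0.383, and Usf1 at 0.927 and 0.816 with all and with 6 libraries. For Tlr3, Atp13a1 had 0.960 and 0.951, Fbh1 0.915 and 0.708, and Zfyve19 0.911 and -0.349. The others were Pttg1ip, Pik3r4 and Preb for Tlr2, Slc35a4, Bag1 and Azi2 for Tlr6, Tollip, Jade2 and Pnpla2 for Tlr7, and Fndc3a, Trf and Ppfia4 for Tlr8. Tlr9 ran most like Chaserr, Itpr2 and a gene listed by Ensembl identifier only. Tollip, which encodes an inhibitor of Toll-like receptor signalling, had r of 0.886 with Tlr7 and 0.853 without the 2 libraries.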

How the data were processed

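Per the labels' protocols, 500 pg of total RNA was turned into amplified cDNA with a SMARTer Ultra Low Input kit, and 150 pg of that entered a NexteraXT preparation, read in pairs of 150 nt. That preparation does not mark strand. Per the submitters' processing notes, STAR 2.7.9a, featureCounts 2.0.1, Salmon 1.5.2 and DESeq2 were named with the build GRCm39. What each did, and on which annotation, is not given in the sources used here. The authors deposited 1 table of signal values, counts divided by a DESeq2 size factor per library. Each library's non-zero values were whole multiples of its smallest one within 1e-06 for 100% of values, so whole reads were recovered.

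The members and gene lists were chosen with earlier results of these data known. Genes averaging 10 or more, 14428 in all, entered limma 3.58.1 as log2(value + 1) (R 4.3.3, intensity trend, two-sided, Benjamini-Hochberg at 0.05), checked on simulated data. Named genes were the 10 members, 19 pathway genes listed by name, the gene of smallest unadjusted p in each list, and the 3 genes most like each member. Fold changes and intervals are differences of mean log2(value + 1), which for low or uneven genes can be smaller or larger than the fold of the group means. Reads from so little RNA carry no molecular identifiers, so they are not independent molecules. Alternatives included edgeR 4.0.16 and DESeq2 1.42.0 on recovered reads. Exon lengths and coding sequences came from GENCODE M21 on GRCm38, matched by symbol for all 10 members; windows were compared over exact 100-base matches on both strands. Neighbouring genes were read from RefSeq GRCm38.p6, and no coordinates are given since the builds differ.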

Additional observations from a re-analysis of the deposited data

Results flagged for a closer look

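In 9 of 64 groups of 4 libraries checked, the highest or lowest library stood apart from the other 3 by more than Dixon's 95% limit, where chance flags about 1 in 20 groups; 3 of these were in the 20 groups of the 10 members. For Tlr3 this was saline 2 at 2030 and ethanol 2 at 2025 normalized counts, the libraries with the same sample number. For Tlr13 it was saline 4 at 5760, against 4593 to 4783 in the other saline libraries. Among the other named genes it was ethanol 4 for Ctss at 132362 and for Tlr5 at 347, saline 1 for Hmgb3 at 11.1, saline 2 for Rab7b at 125, and for Ifnb1, at 0 elsewhere in its group, saline 3 at 2.04 and ethanol 4 at 3.09.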

How the results depend on the processing

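Under all 22 alternatives run, 0 members and 0 genes were called, with 0 to 0 when each library was left out. The alternatives were pseudocounts of 0.5 and 5, no filter, a minimum mean of 50, array weights, a robust variance model, quantile normalization, the replicate block, the library-name number, samples 1 and 2 against 3 and 4 as a term, a threshold of 0.10, edgeR, voom, DESeq2 and leaving out each library. Of 216 member values under these, 22 had the opposite sign to the one reported, and those of Tlr6, Tlr7, Tlr13 and Hmgb1 had 0 such changes. Some of the 216 could not turn, since their settings leave the log2 fold change as it is. These settings were the threshold, the filters, the robust variance model, the replicate block and the term for samples 1 and 2 against 3 and 4. On the log2 scale the turned values were 0.00051 (quantile), 0.0098 (array weights), 0.0019 (edgeR) and 0.0039 (voom) for Tlr3, 0.0097 for Tlr4 and 0.0075 for Cd14 (array weights), 0.0034 for Cd14 (voom), -0.0204 for Unc93b1 (quantile), and -0.0291 for Irak3 and 0.0140 for Nfkbia (library-name number). Leaving out 1 library gave ranges across 0 of -0.118 to 0.0275 for Tlr1, -0.0531 to 0.0753 for Tlr2, -0.0868 to 0.0805 for Tlr3, -0.0714 to 0.0600 for Tlr4, -1.30 to 0.232 for Tlr8, -0.149 to 0.0710 for Tlr9, -0.0605 to 0.0444 for Cd14, -0.0670 to 0.0481 for Myd88, -0.116 to 0.136 for Irak3, -0.00980 to 0.171 for Hmgb2, -0.0483 to 0.662 for Ager, -0.177 to 0.0351 for Nfkbia and -0.0301 to 0.10 for Tlr12. The cause was not tested.

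Same-numbered libraries had correlations of deviations from their group means of 0.096, 0.113, 0.172 and -0.018, so the numbers were not taken to pair the samples. With the replicate block 0 genes and 0 members were called, and Tlr13 had an unadjusted p of 0.00945 (adjusted p = 0.987). Not every library was most like its own number. Without saline 1, 2 or 3 or ethanol 2 or 4, 0 members had an unadjusted p under 0.05. Tlr8 fell under the filter when saline 2, saline 3 or ethanol 2 was left out, or with a mean of at least 50. The members' median was -0.04 to 0.04 with each library left out and -0.06 with the library-name number. Tlr8, Tlr11 and Ifnb1 had 88, 79 and 5 reads in all. The spread of Tlr8 between libraries went beyond the counting error of independent reads. Reads here are not independent molecules, and the part of sampling few molecules in this spread was not tested.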
